A study of Homo sapiens with 3 samples.

Results

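The genes described here carry a symbol that begins with METTL (methyltransferase-like), NSUN (NOL1/NOP2/Sun domain) or TRMT (tRNA methyltransferase) followed by a digit. The METTL3, METTL14 and METTL16 genes, which act on adenosine in mRNA and snRNA, and symbols with a hyphen were left out. The rule found 48 of the 39320 gene rows on the main chromosomes, of which 23 are METTL, 8 are NSUN and 17 are TRMT genes, spread over 21 chromosomes. The data are polyA RNA-seq of 3 libraries labelled as wild-type HepG2, a human cell line from a liver cancer, and no other genotype or treatment was sequenced. The study examined splice variants of METTL3 in this line, and these libraries are its untreated cells. Nothing in the labels says that the 3 libraries came from separate cultures, so the spread between them may be technical. The p-values given further on come from permuted signs of ratios in these libraries. They do not measure that spread and do not reach beyond these libraries.

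The label of the cells was set against marker genes. Of 12 hepatocyte genes that encode secreted plasma proteins, 11 stayed below 1 TPM (a transcript level scaled for length and for the library total) in every library and 8 were listed at 0 in all 3, among them ALB and APOA1. RBP4 was the exception, with 11.6, 10.6 and 10.8 TPM in replicates 1, 2 and 3. The summed level of these 12 genes was 11.6, 10.9 and 10.9 TPM. Of 4 epithelial markers, the keratin KRT8 was the most abundant with 2641.9, 2599 and 2588 TPM, while EPCAM was below 1 TPM throughout. Of 4 mesenchymal markers, the filament gene VIM had 749, 672 and 661 TPM, and SPARC was listed at 0. Of 4 blood markers, CD68 had 8.41, 9.48 and 10.3 TPM, HBB was below 1 TPM, and PTPRC and CD3E were listed at 0. The endothelial markers PECAM1 and CDH5 were below 1 TPM in every library. The secreted-protein markers, as listed, thus go against a hepatocyte-like line, and the cells are called the libraries labelled HepG2. A value listed at 0 need not mean that RNA is absent, as described further on for LCMT2.

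Most enzymes of these families transfer a methyl group from S-adenosylmethionine to a base or ribose of RNA. NSUN enzymes methylate cytosine, TRMT enzymes mostly methylate tRNA, and METTL is a looser name given for a methyltransferase fold, so that it includes enzymes of tRNA, rRNA and snRNA as well as of proteins and small molecules. Methylation supports the folding, stability and decoding of tRNA and the assembly of ribosomes in the cytosol and in mitochondria. By what is known of their substrates, 19 of the 48 genes act on cytosolic tRNA, 1 is an adaptor of several methyltransferases, 8 act in the mitochondrion on RNA or ribosome assembly, 3 act on cytosolic rRNA or snRNA, 8 act on proteins or small molecules, 3 are pseudogenes and 6 are given no role here. The name RNA methyltransferase therefore fits only some of the members.

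At least 1 TPM in every library was reached by 42 of the 48 members (87.5%), against 33.8% of all gene rows. Among protein-coding genes the share was 40 of 45 members (88.9%), against 59.5% of all protein-coding rows. A level of at least 10 TPM in every library was reached by 24 members, against 20.7% of all gene rows and 40.3% of protein-coding rows. At least 100 TPM was reached by 3 (6.25%), against 3.62% and 7.16%. Of the 42 expressed members, 57.1% were at 10 TPM or more in every library, against 61.1% of all gene rows expressed in every library. The median of the members' mean levels was 10.1 TPM, with library medians of 10.9, 9.76 and 9.66 TPM. Over the 42 members with a mean of at least 1 TPM the median was 13.8 TPM. It was 15.4 TPM over all 13753 gene rows at that level and 19.3 TPM over the 11680 protein-coding rows among them. The expressed members were therefore at an ordinary level for an expressed gene, at percentile 47.3 of these rows. Their summed level was 1520.2, 1528 and 1563 TPM, and the 3 highest genes made up 54.7% of the summed means.

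**Figure D1:**
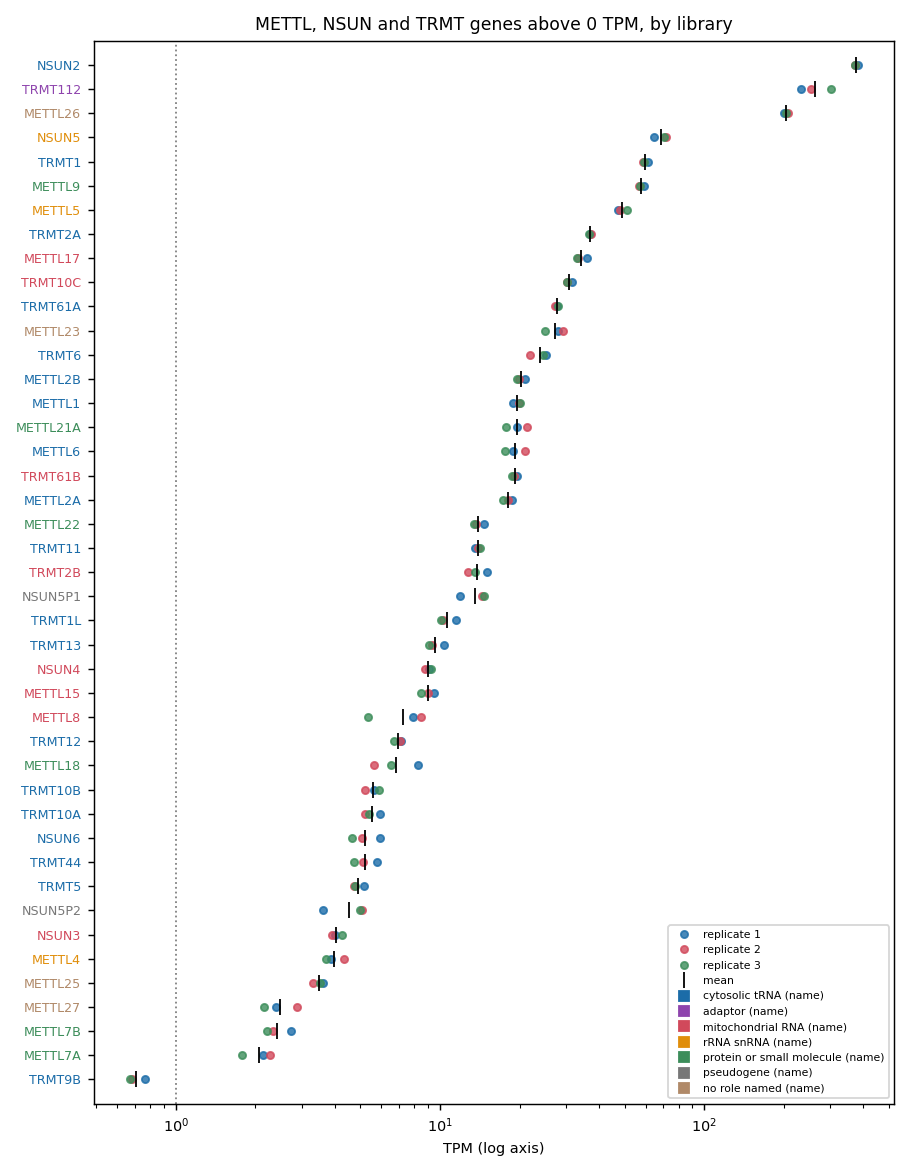
Level of each METTL, NSUN or TRMT gene above 0 in TPM on a log axis, with 1 point for each library and a bar at the mean. Names are coloured by known substrate, the dotted line marks 1 TPM, and METTL11B, METTL21C, METTL21EP, METTL24 and NSUN7, listed at 0, are not drawn. NSUN2, TRMT112 and METTL26 lie above 100 TPM in every library.

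Promoter sequences are shown for 3 members that share a start region with a gene on the opposite strand, since the levels on the opposite sides of these starts are compared further on. A RefSeq promoter entry, from 250 bases before to 50 bases after the start, was matched for 37 members. Each is given 5′ to 3′ on the strand of the TRMT gene in GRCh38.p14. Capitals mark the motifs CCGGAAG (an ETS-type motif), GGGCGG (a GC box) and CCAAT, in either orientation. The TRMT112 window is chr11:64317941-64318240 on the minus strand, that of TRMT6 is chr20:5950484-5950783 on the minus strand, and that of TRMT10A is chr4:99563990-99564289 on the minus strand.
TRMT112: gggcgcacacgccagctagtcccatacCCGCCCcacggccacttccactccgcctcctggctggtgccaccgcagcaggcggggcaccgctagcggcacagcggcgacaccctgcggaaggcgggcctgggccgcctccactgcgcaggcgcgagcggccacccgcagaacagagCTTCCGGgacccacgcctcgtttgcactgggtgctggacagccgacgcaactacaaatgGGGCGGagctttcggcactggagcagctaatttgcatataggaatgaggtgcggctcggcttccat
TRMT6: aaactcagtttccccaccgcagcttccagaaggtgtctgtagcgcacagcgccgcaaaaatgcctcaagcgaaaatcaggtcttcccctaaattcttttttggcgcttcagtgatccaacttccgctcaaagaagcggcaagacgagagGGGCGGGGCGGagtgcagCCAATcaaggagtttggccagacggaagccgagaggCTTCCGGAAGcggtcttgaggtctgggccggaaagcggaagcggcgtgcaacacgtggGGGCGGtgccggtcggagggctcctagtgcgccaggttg
TRMT10A: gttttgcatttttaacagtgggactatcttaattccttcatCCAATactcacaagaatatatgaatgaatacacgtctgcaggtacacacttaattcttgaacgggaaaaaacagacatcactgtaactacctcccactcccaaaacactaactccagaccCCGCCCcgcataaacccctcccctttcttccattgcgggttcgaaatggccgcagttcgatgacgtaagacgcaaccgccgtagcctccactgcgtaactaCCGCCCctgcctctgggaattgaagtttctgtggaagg
The CCGGAAG motif was found once in the TRMT112 window, 2 times in that of TRMT6, where the matches on opposite strands overlap, and 0 times in that of TRMT10A. The deposited start of the opposite-strand neighbour lies at base 153 of the TRMT112 window (PRDX5), at base 132 of the TRMT6 window (MCM8) and at base 212 of the TRMT10A window (MTTP). The RefSeq starts of TRMT112, TRMT6 and TRMT10A lie 94, 25 and 18 bases from the starts in the deposited tables.

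Across the 37 promoters, CCGGAAG or its reverse complement CTTCCGG was present in 11 (29.7%), against 10.7% of all 27305 promoters of the same length. GGGCGG or CCGCCC was present in 23 (62.2%), against 44.6% of all. CCAAT or ATTGG was present in 12 (32.4%), against 35.7% of all, and TATAAA or TTTATA in 2 (5.41%), against 12.0% of all. Both strands were searched, and a match says only that these letters are in the window. The set of all promoters includes those of genes that were not expressed, whereas most members were expressed. No set limited to expressed genes was compared. For a member the entry nearest its deposited start was taken, and for all promoters the first entry of each gene. The median number of CpG dinucleotides was 21 in the members' promoters and 14 in all promoters. It was 28 for TRMT112, 24 for TRMT6 and 14 for TRMT10A.

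Among the enzymes of cytosolic tRNA, 18 of 19 were at 1 TPM or more in every library, against 33.8% of all gene rows. At 10 TPM or more were 11 of these enzymes, against 20.7% of all gene rows. The summed level of all 19 was 683, 661 and 660.3 TPM, or 668 ± 12.8 TPM (SD, n = 3). The highest was NSUN2, which methylates cytosine in many tRNAs and in mRNA, with 382, 371 and 371 TPM, or 375 ± 6.50 TPM (SD, n = 3). It was above every other member in all 3 libraries and at percentile 97.7 of expressed gene rows. TRMT1, which dimethylates a guanosine between the D and anticodon stems, followed with 61.5, 58.5 and 59.4 TPM. Its libraries did not overlap with those of NSUN2, and its paralog TRMT1L was lower at 10.6 ± 0.785 TPM (SD, n = 3).

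TRMT61A and TRMT6 form the complex that methylates adenosine in the T loop, in which TRMT61A is the catalytic subunit. TRMT61A had 27.8, 27.3 and 28.1 TPM, and TRMT6 had 25.2, 21.8 and 24.6 TPM. The catalytic subunit was the higher of both in every library, and the sets of libraries did not overlap, with a log2 ratio of 0.21 ± 0.09 (SD, n = 3). METTL1 is the catalytic subunit of the enzyme that methylates guanosine in the variable loop, and WDR4 is its partner. METTL1 had 18.9, 19.8 and 20.1 TPM, and WDR4 had 37.4, 41.1 and 39.2 TPM. Here the catalytic subunit was the lower one in every library, with a log2 ratio of -0.96 ± 0.05 (SD, n = 3). By coverage, the depth of reads over the gene, the log2 ratio was -0.42 ± 0.02 (SD, n = 3).

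METTL2A, METTL2B and METTL6 methylate cytosine in the anticodon loop of tRNAs. METTL2A had 18.7, 18.1 and 17.3 TPM, and its near-identical paralog METTL2B had 21.1, 20.0 and 19.5 TPM. The highest value of METTL2A was below the lowest of METTL2B. METTL6, which acts on serine tRNAs, was at 19.2 ± 1.68 TPM (SD, n = 3), close to both by TPM. Its mean coverage, the depth of reads over the gene, was 29.1, against 104.8 for METTL2A and 121 for METTL2B. The coding regions of METTL2A and METTL2B are 1134 nt each in GENCODE v44 and differ at 15 positions (98.7% identity). The 30 bases of these regions shown next, from coding base 342 to 371, hold 3 of these mismatches, in capitals, and are shown as a stretch in which the paralogs differ more than over the whole coding region.
METTL2A: CtggttcttggagaacaagagtgaagtaCC
METTL2B: TtggttcttggagaacaagagtgaagtaTG
Windows of 150 bases, the read length, were shared between the genes over 5.26% of the METTL2A and 5.22% of the METTL2B transcript. Most windows of this length therefore differ between the genes. How the deposited values divide the shared reads was not tested.

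TRMT2A methylates uridine in the T loop of cytosolic tRNA, and TRMT2B is its mitochondrial paralog. TRMT2A had 37.0, 37.4 and 36.5 TPM, and TRMT2B had 15.1, 12.7 and 13.6 TPM. TRMT2A was higher in all 3 libraries with no overlap, and the log2 ratio was 1.36 ± 0.12 (SD, n = 3). The paralogs TRMT10A and TRMT10B methylate guanosine between the acceptor and D stems. TRMT10A had 5.92, 5.22 and 5.37 TPM, and TRMT10B had 5.60, 5.22 and 5.86 TPM. Their libraries overlapped, TRMT10A was the higher only in replicate 1, and the log2 ratio of -0.01 ± 0.09 (SD, n = 3) was within the spread. By coverage TRMT10A was the higher, with a log2 ratio of 2.01.

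Of the remaining tRNA enzymes, TRMT11, a guanosine methyltransferase that works with TRMT112, was at 13.9 ± 0.331 TPM (SD, n = 3). TRMT13, which methylates ribose in the acceptor stem, was at 9.57 ± 0.661 TPM (SD, n = 3). TRMT12, an enzyme of wybutosine synthesis, was at 6.95 ± 0.226 TPM, and TRMT5, which acts on the guanosine beside the anticodon and makes the substrate of that pathway, was at 4.89 ± 0.243 TPM (SD, n = 3). Both were thus below 10 TPM in every library. NSUN6, which methylates cytosine at the acceptor end, and TRMT44, which methylates the ribose of uridine in serine tRNAs, were at 5.22 ± 0.664 and 5.21 ± 0.529 TPM (SD, n = 3). TRMT9B was the only member below 1 TPM in every library that was not listed at 0, with 0.762, 0.680 and 0.672 TPM.

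TRMT112 is a small protein without catalytic activity that binds and stabilises several methyltransferases. It had 232, 254 and 302 TPM, or 263 ± 35.7 TPM (SD, n = 3). Its spread was the largest of the 3 members above 100 TPM, with replicate 3 high, and its libraries did not overlap with those of NSUN2 above it or METTL26 below it. The methyltransferases known to bind TRMT112 include TRMT11 and METTL5 among the members, together with BUD23 (rRNA), ALKBH8, THUMPD3 (tRNA), THUMPD2 (snRNA) and N6AMT1 (protein). The levels of these 7 genes summed to 269, 276 and 297 TPM. This was 1.16, 1.09 and 0.984 times the level of TRMT112 in the same libraries, so the adaptor and the sum of its partners were at a similar level. BUD23 was the highest of the 7, with 151, 153 and 170.2 TPM, and ALKBH8 the lowest by mean, with 5.39, 4.71 and 4.56 TPM, although N6AMT1 was lower in replicate 1 at 4.04 TPM. This set was put together after the values were seen.

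All 8 genes of mitochondrial RNA or ribosome assembly were at 1 TPM or more in every library, against 33.8% of all gene rows. At 10 TPM or more were 4 of them, against 20.7% of all gene rows. The summed level of the 8 was 133, 126 and 123 TPM, or 127 ± 4.96 TPM (SD, n = 3). METTL17, a factor of mitochondrial ribosome assembly, was the highest at 34.1 ± 1.65 TPM (SD, n = 3). TRMT10C, which with HSD17B10 and PRORP forms mitochondrial RNase P and its tRNA methyltransferase, had 31.5, 30.3 and 30.3 TPM. HSD17B10, which is also a dehydrogenase of fatty acid and isoleucine breakdown, had 509, 552 and 541 TPM. It was above TRMT10C in every library by 16.9-fold on the log2(TPM + 1) scale, with a log2 ratio of TRMT10C to HSD17B10 of -4.07 ± 0.09 (SD, n = 3). PRORP, the nuclease subunit, listed under its older name KIAA0391, was closer to TRMT10C at 20.6 ± 0.892 TPM (SD, n = 3).

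TRMT61B, the mitochondrial paralog of TRMT61A, had 19.6, 19.1 and 18.8 TPM. TRMT61A was above it in every library without overlap, with a log2 ratio of 0.51 ± 0.04 by TPM and of 1.27 ± 0.04 by coverage (SD, n = 3). NSUN4 methylates mitochondrial rRNA and joins MTERF4 in ribosome assembly. NSUN4 had 9.06, 8.77 and 9.25 TPM, and MTERF4 had 8.12, 7.44 and 7.30 TPM. NSUN4 was the higher in every library with a log2 ratio of 0.22 ± 0.08 (SD, n = 3), so these partners were at nearly the same level by TPM. By coverage the log2 ratio was 2.06, as described further on. METTL15, which methylates cytidine in the small mitochondrial rRNA, was at 8.97 ± 0.505 TPM, and NSUN3, which methylates the wobble cytidine of mitochondrial methionine tRNA, was at 4.05 ± 0.199 TPM (SD, n = 3).

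METTL8, which methylates cytidine in mitochondrial tRNAs, had 7.88, 8.50 and 5.33 TPM. Replicate 3 was the low library, and the range of log2(TPM + 1) of 0.59 was the largest of any member. Its coverage, which is not scaled for library size, was 21.5, 19.3 and 16.0. The ratio of coverage to FPKM, described further on, was 0.435, 0.371 and 0.547 of the highest ratio. TPM and coverage of METTL8 therefore did not vary alike between libraries.

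For the 8 pairs, log2 ratios of TPM + 1 were formed inside each library. In 7 of them the ratio had the same sign in all 3 libraries. An exact permutation of the signs, two-sided, returned p = 0.25 for every one of these 7, the smallest p that 3 libraries allow, and 0.286 after Benjamini-Hochberg adjustment over 8 pairs. For TRMT10A and TRMT10B the exact p was 0.75, and 0.75 after adjustment. With 3 libraries no pair could pass 0.05 by this permutation, so the ratios stand as measured values with their spread.

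**Figure D2:**
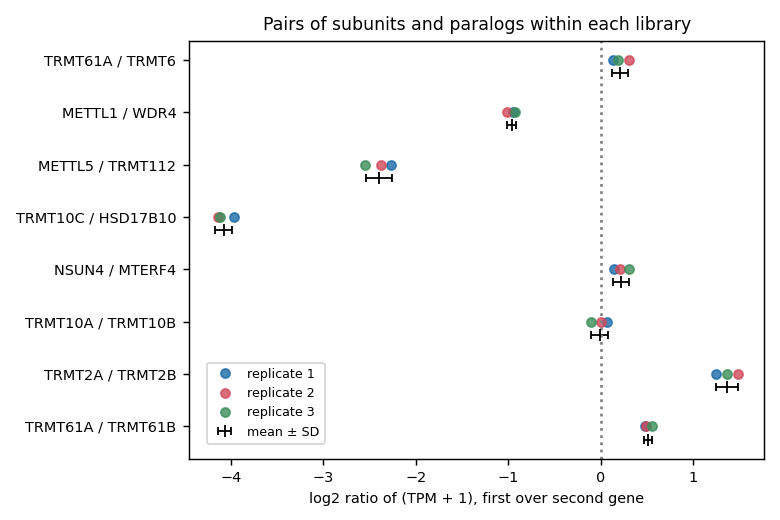
Log2 ratio of TPM + 1 for 8 pairs of subunits or paralogs, with 1 point for each library and the mean ± SD (n = 3) drawn beneath. TRMT10C to HSD17B10 lies farthest from 0, at -4.07, and only TRMT10A to TRMT10B has libraries on both sides of 0.

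Of the enzymes of cytosolic rRNA and snRNA, NSUN5, which methylates cytosine in the large-subunit rRNA, had 64.8, 71.4 and 70.5 TPM. It was the fourth member by level, and its libraries did not overlap with those of TRMT1, the next. METTL5, which methylates adenosine in the small-subunit rRNA together with TRMT112, had 47.3, 48.1 and 50.9 TPM. It was below its adaptor in every library, with a log2 ratio of METTL5 to TRMT112 of -2.40 ± 0.14 (SD, n = 3) and a 5.27-fold difference. METTL4, which methylates adenosine in a spliceosomal snRNA, was much lower at 3.97 ± 0.325 TPM (SD, n = 3).

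NSUN5 lies on chromosome 7 and has duplicated copies there, NSUN5P1 and NSUN5P2. NSUN5P1 had 11.9, 14.4 and 14.6 TPM, and NSUN5P2 had 3.60, 5.05 and 4.96 TPM. In all 3 genes replicate 1 was the lowest library. The transcript of NSUN5 was 93.2% identical to that of NSUN5P1 and 97.0% identical to that of NSUN5P2 over the aligned bases. Windows of 150 bases were shared with other genes over 11.6% of NSUN5, 2.6% of NSUN5P1 and 14.9% of NSUN5P2 in the same transcript orientation. NSUN5P2 also shared 59.6% of its windows with POM121 on the opposite strand, a nuclear pore gene at 35.2 ± 0.440 TPM (SD, n = 3), and NSUN5 shared 8.46% with it. How reads were divided among these genes was not tested, so the values of NSUN5 and of both pseudogenes are uncertain, as is the place of NSUN5 in the order. METTL21EP, the third pseudogene, was at 0 throughout.

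Of the 8 genes known for methylating proteins or small molecules, 6 were at 1 TPM or more in every library. The share of all gene rows at that level was 33.8%. At 10 TPM or more were 3 of the 8, against 20.7% of all gene rows. METTL9, which methylates histidine in proteins, had 59.3, 56.7 and 57.0 TPM. Its libraries overlapped with those of TRMT1, the next gene above it, but by coverage METTL9 ranked 16th with a mean of 68.4, against 238 for TRMT1, which ranked 6th. METTL21A, which methylates lysine in HSP70 chaperones, was at 19.6 ± 1.74 TPM, and METTL22, another lysine methyltransferase, was at 13.9 ± 0.641 TPM (SD, n = 3). METTL18, which methylates histidine in a ribosomal protein, had 8.28, 5.61 and 6.50 TPM. Replicate 1 was the high library, and the range of 0.49 was the second largest among the members. METTL7A and METTL7B, membrane-bound thiol methyltransferases with 69.9% identical coding regions, were the lowest members above 1 TPM. METTL7A had 2.15, 2.27 and 1.77 TPM, and METTL7B had 2.73, 2.32 and 2.22 TPM, so their libraries overlapped. METTL11B, which methylates protein N termini, and METTL21C, a lysine methyltransferase of muscle, were listed at 0 in all 3 libraries.

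METTL26, to which no role is given here, was the third member by level, with 200.4, 207 and 204 TPM. Its CV of 1.61% was among the smallest of the members, and its libraries lay below those of TRMT112 and far above those of NSUN5. METTL23 was at 27.4 ± 2.15, METTL25 at 3.48 ± 0.158 and METTL27 at 2.47 ± 0.359 TPM (SD, n = 3). METTL24 and NSUN7 were listed at 0 in all 3 libraries. A 0 in these tables need not mean that RNA is absent, since LCMT2, a wybutosine enzyme on the list of related genes, was listed at 0, 16.4 and 0 TPM.

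In order of mean TPM the 42 expressed members form 41 neighbouring pairs. The libraries of 15 pairs did not overlap and those of 26 did. From NSUN2 down to TRMT61A, the 11th, only TRMT1 and METTL9 overlapped, while below NSUN5P1 most neighbours did. By this overlap the order among the lower members is not resolved. Some overlapping neighbours still kept the same order inside every library, such as METTL7B above METTL7A and TRMT1L above TRMT13.

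Between libraries the members varied little. A range of log2(TPM + 1) above 1 was seen in 0 of 42 members, against 1.26% of all gene rows with a mean of at least 1 TPM, a share at which less than 1 member would be counted. A range above 0.5 was seen in 1 member, METTL8, against 4.17% of those rows. After METTL8 and METTL18, the largest ranges were 0.40 in NSUN5P2 and 0.38 in TRMT112. The median coefficient of variation was 7.55% in members between 1 and 10 TPM, against 9.16% in all rows at that level, and 4.02% in members of 10 TPM or more, against 4.88%. The highest of the 3 values was in replicate 1 for 22 members, in replicate 2 for 11 and in replicate 3 for 9, and replicate 1 also held the highest value for 58.1% of all gene rows with a mean of at least 1 TPM.

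**Figure D3:**
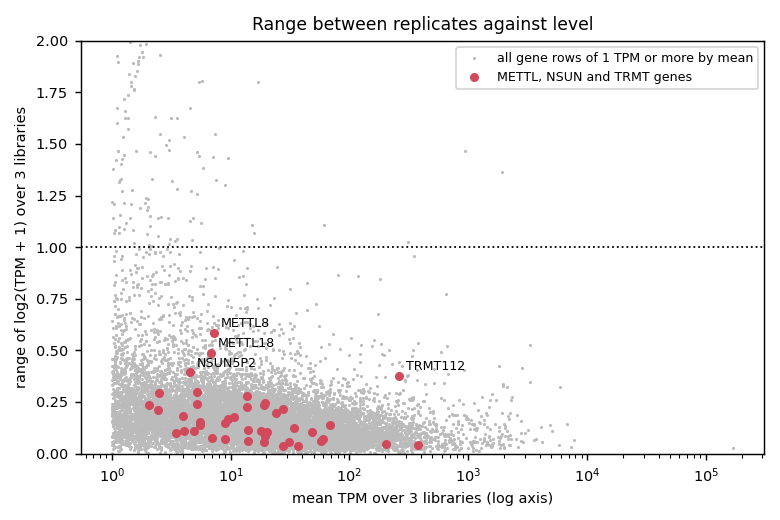
Range of log2(TPM + 1) over 3 libraries against mean TPM on a log axis, for all 13753 gene rows with a mean of at least 1 TPM in grey and the 42 members in red. The dotted line marks a range of 1, below which every member lies, and 60 grey rows lie above the top of the axis at 2.

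Coverage, the mean depth of reads over a gene, was deposited beside TPM and gave another order for some members. The Spearman correlation of mean TPM with mean coverage was 0.84 across the 42 genes, which share libraries and are not independent replicates. TRMT11 ranked 21st by TPM and 41st by coverage, with a coverage of 4.08, 4.10 and 3.68 in replicates 1, 2 and 3. METTL21A, with a coverage of 10.5, 10.7 and 8.42, ranked 16th by TPM and 36th by coverage. TRMT2B, the next member below TRMT11 by TPM, had a coverage of 73.9, 63.2 and 57.0, and METTL1, the next above METTL21A, had 98.1, 104.9 and 93.0. On the other side, METTL22, the next above TRMT11, had a mean coverage of 16.8, and METTL6, the next below METTL21A, had 29.1. TRMT11 and METTL21A were therefore covered less deeply than the neighbours on both sides. The gap was wide to TRMT2B and METTL1 and smaller to METTL22 and METTL6.

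For each gene the ratio of coverage to FPKM was divided by the highest ratio in the library and averaged over the 3 libraries. To within rounding, TRMT10C, TRMT61A, METTL2B, TRMT12, NSUN5P2, METTL7A and METTL7B reach the highest ratio. Among the 42 members with a mean of at least 1 TPM the averaged value was below 0.25 in 7 (TRMT11, METTL25, METTL21A, METTL9, TRMT10B, METTL22 and METTL23), against 13.6% of all rows with a mean of at least 1 TPM. METTL23 was just above this limit in replicate 1, at 0.255, and METTL6, with a mean of 0.256, was below it in replicate 2, at 0.231. The median was 0.761 over the 42 members and 0.805 over those rows. It was 0.048 for TRMT11, 0.077 for METTL25 and 0.084 for METTL21A. The TPM of these genes therefore rests on less coverage than that of genes at the highest ratio. By coverage, the log2 ratio of TRMT10A to TRMT10B was 2.01 ± 0.07 in place of -0.01, and that of NSUN4 to MTERF4 was 2.06 ± 0.06 in place of 0.22 (SD, n = 3), so the near-equal levels in these pairs are not seen by coverage. The cause was not tested.

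**Figure D4:**
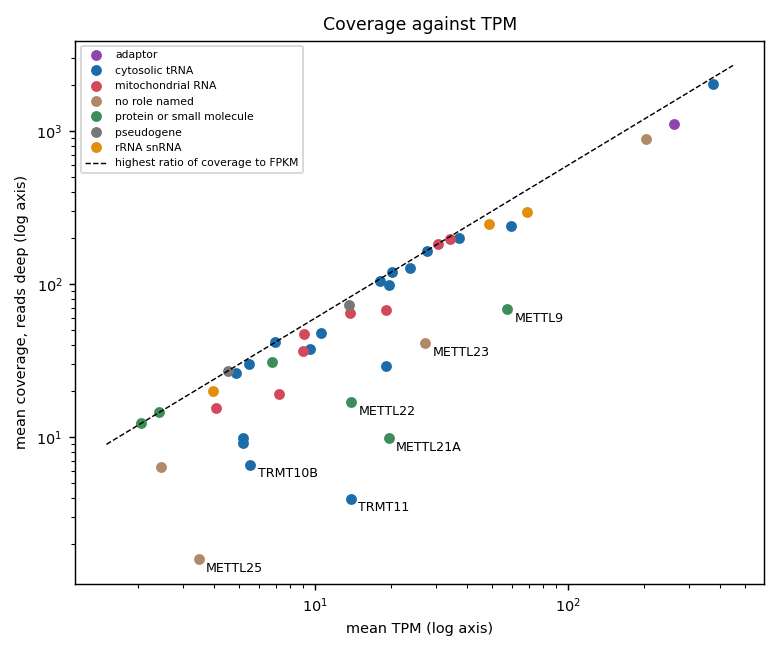
Mean coverage against mean TPM on log axes for the 42 members with a mean of at least 1 TPM, coloured by known substrate. The dashed line is the highest ratio of coverage to FPKM, and the 7 named genes have a ratio below 0.25 of it.

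A neighbour on the opposite strand whose start lies within 1000 bp was found for 20 of the 48 members (41.7%), against 19.0% of all gene rows. All 20 were among the 42 expressed members (47.6%), against 30.4% of gene rows and 30.5% of protein-coding rows at 1 TPM or more in every library. Within 100 bp the count was 11 of 42 (26.2%), against 10.5% of gene rows. Head-to-head starts were therefore common among these genes. In some pairs each row runs over the start of the other, as for NSUN2 and SRD5A1 (38 bp), TRMT1 and NACC1 (719 bp) and METTL23 and JMJD6 (923 bp). The strand setting is not given, so reads of such an overlap may not be told apart by gene. For TRMT112, TRMT6 and TRMT10A the starts lie apart. The levels of both genes are given with this limit.

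TRMT112 starts 4 bp from PRDX5, a peroxiredoxin gene, which had 521, 629 and 620.1 TPM. Both genes of this start region were thus above 100 TPM in every library, and PRDX5 was the higher of them throughout. TRMT6 starts 94 bp from MCM8, a DNA repair helicase with 17.6, 15.2 and 16.7 TPM. TRMT6 was the higher in every library, with no overlap. TRMT10A starts 21 bp from MTTP, which loads lipid onto apolipoprotein B in hepatocytes and was listed at 0 in all 3 libraries while TRMT10A was above 5 TPM. In these 3 start regions, whose sequences are printed earlier, the opposite gene was thus higher for TRMT112, somewhat lower for TRMT6 and listed at 0 for TRMT10A.

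NSUN2 starts 38 bp from SRD5A1, a steroid reductase at 31.0 ± 1.46 TPM (SD, n = 3), far below NSUN2. METTL6 starts 18 bp from EAF1, a transcription elongation factor at 16.7 ± 0.412 TPM (SD, n = 3), near the TPM of METTL6, whose coverage is low for its TPM, with a ratio of coverage to FPKM at 0.256 of the highest. METTL4 starts 52 bp from NDC80, a kinetochore gene at 24.3 ± 2.27 TPM, and METTL1 starts 469 bp from EEF1AKMT3, a methyltransferase of an elongation factor at 3.59 ± 0.466 TPM (SD, n = 3). The level of the neighbour therefore ranged from 0 to above that of the member.

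**Figure D5:**
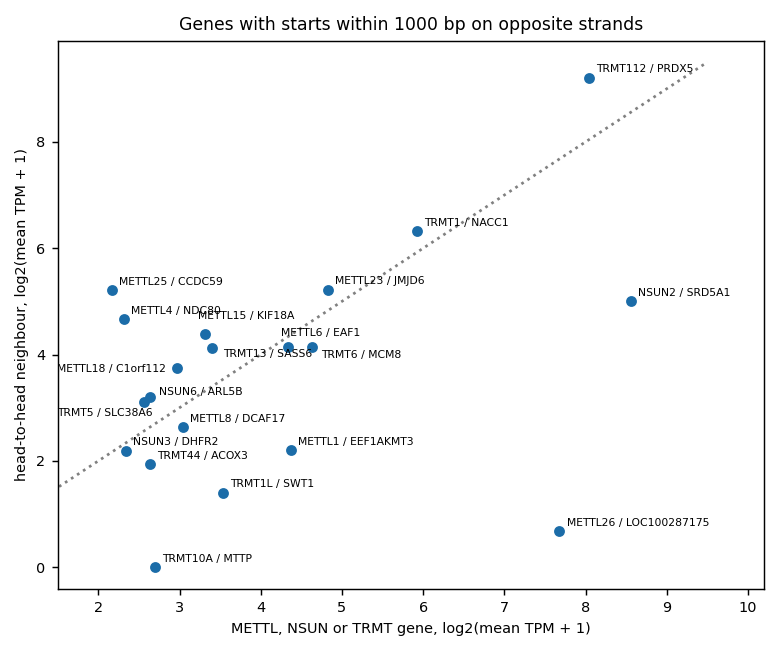
Mean level of the 20 members with a head-to-head neighbour against that of the neighbour, both as log2(mean TPM + 1). The dotted line marks equal levels. PRDX5 lies above TRMT112, and CCDC59 and NDC80 lie farther above METTL25 and METTL4. SRD5A1, LOC100287175 and MTTP lie far below NSUN2, METTL26 and TRMT10A.

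Some rows overlap along their length with a gene on the other strand. This held for 28 of the 48 members (58.3%), against 38.4% of all gene rows. In 14 (29.2%), against 17.5% of all gene rows, an overlapping gene had the higher mean TPM, as for TRMT2A beside RANBP1 at 343 ± 21.5 TPM and METTL5 beside SSB at 179 ± 2.88 TPM (SD, n = 3). In spliced transcripts, 9 members shared windows of 150 bases with a gene in the opposite orientation. TRMT112 shared 20.4% of its windows with ESRRA, TRMT61B 14.6% with SPDYA, TRMT13 11.0% with LRRC39 and TRMT2A 8.99% with RANBP1. TRMT10B shared 3.22% with EXOSC3, and NSUN7, which was listed at 0, shared 21.5% with APBB2. METTL5 shared no such window. The strand setting of the quantification is not given in the sources used here, so reads of these shared stretches cannot be told apart by gene.

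Of 38 other RNA methyltransferases and partners, METTL3, METTL14 and METTL16 included, 37 were at 1 TPM or more in every library. A level of 10 TPM or more was reached by 29 of them. Over all gene rows these shares were 33.8% and 20.7%, and over protein-coding rows 59.5% and 40.3%. Their median was 26.4 TPM, and HSD17B10 was the most abundant. The median of the 48 members was lower at 10.1 TPM, but these include pseudogenes and 5 genes listed at 0. Restricted to the 42 expressed members it was 13.8 TPM, and for protein-coding rows averaging 1 TPM or more it was 19.3 TPM. The 38 genes are a list of known enzymes and partners, drawn up with earlier results known, whereas the members follow a naming rule. The medians therefore do not compare like sets. FBL, which methylates ribose in rRNA, had 312, 341 and 351 TPM, and FTSJ1, which methylates ribose in the anticodon loop, had 139.9, 127 and 127 TPM. TRDMT1, which like NSUN2 methylates cytosine in tRNA, had only 1.21, 1.10 and 1.21 TPM.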

How the data were processed

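PolyA RNA of 3 libraries labelled wild-type HepG2 was sequenced as 150 bp paired-end reads. The authors filtered the reads with FastQC 0.11.8 and Trim Galore 0.6.2 and mapped them to GRCh38 with STAR 2.6.1a, and the submitters' processing notes also name StringTie. The annotation and strand setting are not given in the sources used here. Coverage, as deposited, gives the mean read depth of a gene with no scaling for library size. The FPKM deposited by the authors is scaled for length and library size, and the TPM deposited by the authors is scaled to a common total.

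Rows were joined by gene and coordinates over the tables (43393, 43391 and 43393 rows), which kept 43389, and 4069 on sequences outside the main chromosomes were left out. No counts were used, so read numbers are unknown. As a relative measure of depth, the highest coverage-to-FPKM ratio was 13.3, 12.8 and 11.5 in replicates 1, 2 and 3. A gene at 1 TPM or more in every library was counted as expressed. Ranges and ratios used log2(TPM + 1), which understates differences of low genes. Pairs were tested by an exact permutation of the signs (two-sided) with Benjamini-Hochberg adjustment, and the calculations were tested on simulated data.

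The members and lists were chosen with earlier results of these data known. Values in every library were given for the 6 highest members, the 4 with the largest range, the genes of the pairs and near-identical paralogs. Other genes given in every library, the head-to-head neighbours and the partners of TRMT112 were picked with their values in view. Transcripts came from GENCODE v44, in which all 48 members were matched, and promoters from RefSeq (GRCh38.p14). The alternatives were other minimum levels and pseudocounts, other scalings, FPKM or coverage in place of TPM, and leaving out each replicate. Python 3.11.15, numpy 2.4.6, pandas 2.3.3, scipy 1.17.1, Biopython 1.88 and matplotlib 3.10.9 were used.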

Additional observations from a re-analysis of the deposited data

How the results depend on the processing

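No paired analysis was possible because all 3 libraries belong to 1 group. The number of expressed members was 42 and fell to 24 with a minimum of 10 TPM, which a stricter minimum can only lower. The median of the members was 10.1 TPM, 12.6 TPM when the values were rescaled without mitochondrially encoded genes, which raised each library by a factor of 1.25, and 13.8 TPM over members with a mean of at least 1 TPM, which leaves out the genes near 0. The log2 ratio of TRMT10A to TRMT10B of -0.01 reversed to 2.01 by coverage, for which the cause was not tested, and to 0.034 without replicate 3. Of the other 7 pairs, none changed sign with a pseudocount of 0.1, FPKM, coverage or a replicate left out, but by coverage the log2 ratio moved from 0.51 to 1.27 for TRMT61A to TRMT61B, from -0.96 to -0.42 for METTL1 to WDR4, from 0.22 to 2.06 for NSUN4 to MTERF4, from 0.21 to 0.38 for TRMT61A to TRMT6, from 1.36 to 1.63 for TRMT2A to TRMT2B and from -2.40 to -2.17 for METTL5 to TRMT112, and it was -4.11 in place of -4.07 for TRMT10C to HSD17B10. The number of members with a head-to-head neighbour within 1000 bp was 20, against 15 within 500 bp and 11 within 100 bp, windows chosen after seeing the data that can only lower it. With each replicate left out, the expressed members stayed at 42, the median ranged from 9.67 to 10.3 TPM, and 0 members had a range above 1. The log2 ratio then ranged from 0.16 to 0.25 for TRMT61A to TRMT6, from -0.98 to -0.94 for METTL1 to WDR4, from -2.46 to -2.32 for METTL5 to TRMT112, from -4.13 to -4.04 for TRMT10C to HSD17B10, from 0.18 to 0.26 for NSUN4 to MTERF4, from -0.054 to 0.034 for TRMT10A to TRMT10B, from 1.30 to 1.42 for TRMT2A to TRMT2B and from 0.49 to 0.52 for TRMT61A to TRMT61B. The unknown number of reads limits every gene listed at 0, since the lowest level that the libraries can show is not known.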

Other observations

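RefSeq lists 11 other genes whose older symbols belonged to the METTL, NSUN or TRMT series. In every library, 10 of them were at 1 TPM or more, against 33.8% of all gene rows and 59.5% of protein-coding rows. NOP2, once NSUN1 and a cytosine methyltransferase of the large-subunit rRNA, had 155, 152 and 153 TPM. NTMT1, once METTL11A, had 121, 131 and 129 TPM, while its paralog METTL11B was listed at 0, so 1 of the protein N-terminal methyltransferases was abundant and the other was not seen. ETFBKMT, once METTL20 and a lysine methyltransferase of a mitochondrial electron carrier, was the exception below 1 TPM, with 0.476, 0.448 and 0.297 TPM. N6AMT1, a partner of TRMT112, had 4.04, 6.27 and 6.69 TPM, with replicate 1 low. Its range of log2(TPM + 1) of 0.61 was wider than that of any of the 48 members.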
